A study of Mus musculus with 2 samples.

Results

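The genes described here are 10 early response genes of the Egr, Nr4a, Nab and Ier families, taken as the probe sets annotated to exactly one of them. They are Egr1, Egr2, Egr3, Nr4a1, Nr4a2, Nr4a3, Nab1, Nab2, Ier2 and Ier3, and they had 21 of the 45101 probe sets of the array. No probe set that named a member named another gene as well. All 10 were among the 11404 measured genes, and 20 of the 21 probe sets reached the floor of measurement, a log2 signal of 3.85, on at least 1 array.

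The samples were CD8+ and CD8- dendritic cells (DCs) from spleens of C57BL/6 mice, with 1 Affymetrix array each. DCs are the cells that take up antigen and present it to T cells, and those that carry CD8α are a separate lineage from those that lack it. In both groups the mice bore B16 melanoma cells, a tumour line of the same strain, that made Flt3L, a cytokine that expands DCs, so neither group holds DCs from tumour-free or unexpanded spleens. After 10 to 12 days the splenic DCs were enriched with magnetic beads and separated by cell sorting. Sorted cells carried CD11c but neither CD3 nor B220, and were collected either with CD8α (CD8+ DCs) or without it (CD8- DCs), and both were labelled as unstimulated. The labels give no genetic change, age, sex or number of mice. With 1 array per group, no difference here has a replicate, a test or a p-value, and it cannot be told apart from variation between mice, sorts or arrays.

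Egr and Nr4a genes are immediate-early genes, which are switched on within minutes of a signal at the cell surface without new protein synthesis. EGR proteins are zinc finger transcription factors that bind GC-rich sites, and the NAB proteins bind to them and repress their activity. NR4A proteins are orphan nuclear receptors, which act without a known hormone. Their promoters hold sites for factors that wait for kinase signals, among them the CArG box for SRF and the cyclic AMP response element (CRE) for CREB.

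Promoters are shown for the members whose windows held most of these sites, to compare the sites within and between the families. From the RefSeq promoter table (GRCm38.p6), windows were read for 7 of the 10 genes (all but Egr1, Egr3 and Ier2). Each runs from 250 bases before the transcription start to 50 after it. For Egr2 the table lists 5 windows, and the third is shown. The 250 bases before the start are printed on the gene's strand, at chr10:67537619-67537868 (+) for Egr2, chr15:101266596-101266845 (+) for Nr4a1, chr2:57124004-57124253 (-) for Nr4a2, chr4:48045055-48045304 (+) for Nr4a3 and chr1:52500449-52500698 (-) for Nab1. Capitals mark every CArG box, CRE core (TGACG) and EGR site (GCGNGGGCG), read on both strands.
Egr2: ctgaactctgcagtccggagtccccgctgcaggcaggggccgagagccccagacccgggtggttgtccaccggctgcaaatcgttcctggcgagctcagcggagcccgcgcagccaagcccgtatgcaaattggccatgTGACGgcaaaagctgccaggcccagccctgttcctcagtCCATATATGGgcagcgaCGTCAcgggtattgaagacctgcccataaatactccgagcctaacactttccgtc
Nr4a1: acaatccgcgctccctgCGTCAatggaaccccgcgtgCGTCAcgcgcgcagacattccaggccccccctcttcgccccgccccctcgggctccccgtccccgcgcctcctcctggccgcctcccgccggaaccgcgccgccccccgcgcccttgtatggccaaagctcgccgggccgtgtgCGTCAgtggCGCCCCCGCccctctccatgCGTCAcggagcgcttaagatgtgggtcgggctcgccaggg
Nr4a2: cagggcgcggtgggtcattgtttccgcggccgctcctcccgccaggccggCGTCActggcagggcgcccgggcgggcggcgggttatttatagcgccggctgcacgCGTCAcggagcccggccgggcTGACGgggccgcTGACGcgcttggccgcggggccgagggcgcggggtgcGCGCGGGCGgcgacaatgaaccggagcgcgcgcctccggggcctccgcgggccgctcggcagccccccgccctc
Nr4a3: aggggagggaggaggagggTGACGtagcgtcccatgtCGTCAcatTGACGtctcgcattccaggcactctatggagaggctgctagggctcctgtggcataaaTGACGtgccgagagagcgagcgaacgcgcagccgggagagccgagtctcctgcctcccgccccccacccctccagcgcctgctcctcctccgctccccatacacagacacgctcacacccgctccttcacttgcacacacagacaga
Nab1: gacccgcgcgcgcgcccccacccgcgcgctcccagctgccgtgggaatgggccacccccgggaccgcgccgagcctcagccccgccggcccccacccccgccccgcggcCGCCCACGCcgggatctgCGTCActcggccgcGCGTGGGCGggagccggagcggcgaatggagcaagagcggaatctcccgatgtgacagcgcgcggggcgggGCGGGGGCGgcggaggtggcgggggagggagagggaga

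The Egr2 window held a CArG box whose first base lies 72 bases upstream of the start, with a CRE core on each side of it at 111 and 55 bases. In all, 4 of the 5 Egr2 windows had a CArG box, and 3 of these overlap and share the same box. Of the 32851 promoter windows in the table, 1.63% hold one, and no window of the 6 other genes read did. Egr1 and Egr3 were not among these 6, so the Egr genes were not compared with each other. The windows of Nr4a1, Nr4a2 and Nr4a3 had 4 CRE cores each, where 20.8% of all windows have at least 1 and 0.231% have at least 4. The cores of Nr4a1 lay between 233 and 40 bases upstream of the start, those of Nr4a2 between 200 and 111 and those of Nr4a3 between 231 and 147. The Nab1 window held 3 EGR sites, a count that 0.195% of all windows reach, while 5.55% have at least 1. Nr4a1 and Nr4a2 had 1 match to the EGR site each. The Nr4a2 match has C at the open base N, where the matches of Nr4a1 and Nab1 have G or T. The shares over all windows also count any base there. None of the member windows held the full CRE (TGACGTCA, in 1.79% of windows), which would count as a core on each strand, or the NR4A monomer site AAAGGTCA (1.51%). The windows of Nab2 and Ier3 had no match to any of these motifs. A match describes letters only, and binding was not measured.

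Among the 3 Egr genes, Egr2 and Egr3 were higher in CD8+ DCs, and Egr1 differed by 0.25 on the log2 scale. These 2 of the 10 genes passed 2-fold in favour of CD8+ DCs, and 0 of the 10 passed it in favour of CD8- DCs. Over all measured genes, 3.55% passed 2-fold towards CD8+ DCs and 5.97% towards CD8- DCs, or 9.52% in either direction. The 10 genes had a median log2 difference (CD8+ minus CD8-) of 0.45, and 7 were higher and 3 lower in CD8+ DCs. Over all 11404 measured genes the median was 0.03, and 5999 were higher and 5113 lower in CD8+ DCs to any extent. In a sorted pool, fewer cells that express a gene and less RNA per cell cannot be told apart. Without regard to direction, the median distance between the arrays was 0.50 for the 10 genes and 0.25 for all measured genes.

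**Figure D1:**
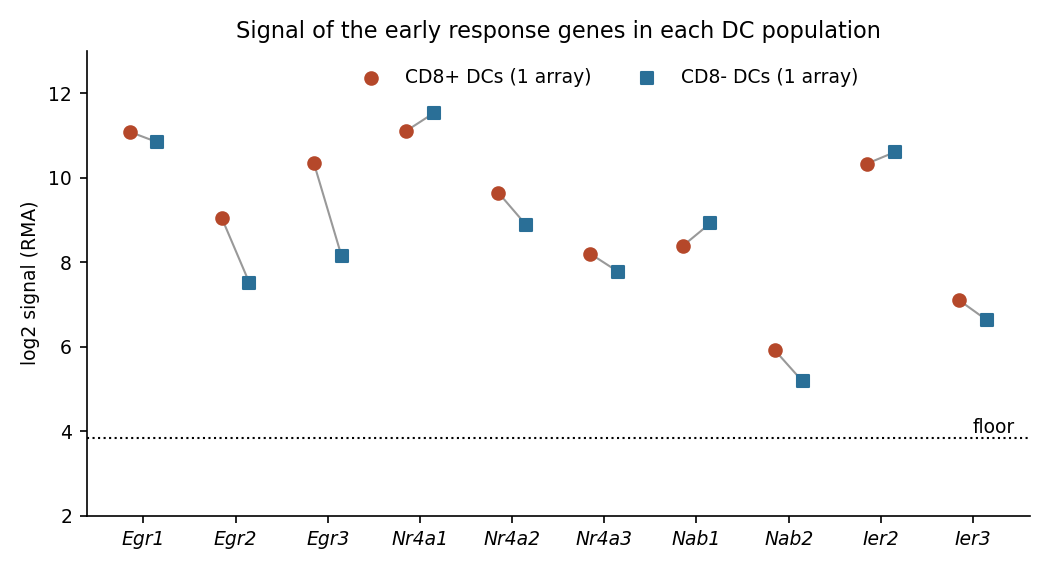
Log2 signal (vertical axis) of the probe set that stands for each of the 10 genes, with CD8+ DCs as circles on the left and CD8- DCs as squares on the right of each gene, 1 array each. The dotted line is the floor of 3.85, the lines join values of 1 gene, and heights of different genes cannot be compared because each has its own probes. Egr3 and Egr2 show the steepest lines, while Nr4a1, Nab1 and Ier2 run upward to CD8- DCs.

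Egr3, a factor that restrains T cell activation and takes part in muscle spindle development, was read at 10.34 in CD8+ DCs and at 8.14 in CD8- DCs on the log2 scale by probe set 1436329_at. CD8+ DCs were 4.59-fold higher there, and the difference ranked 73 from the top among the 11404 measured genes. In size, 2.38% of measured genes were as far apart or further, in either direction. The gene's other probe set, 1421486_at, read 5.74 in CD8+ DCs and 5.27 in CD8- DCs, and the difference of 0.47 lay in the same direction but far under 2-fold. The 2 probe sets of Egr3 were 1.73 apart in their log2 differences, a gap reached by 1.18% of the 5183 genes with several measured probe sets. The size of the Egr3 difference therefore depends on the probe set, and which of them reads the transcript better was not tested. The annotation used here names a source sequence for 1421486_at but none for 1436329_at.

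Egr2 (1427683_at), known for its part in hindbrain patterning, myelination and the restraint of lymphocytes, stood at 9.05 in CD8+ DCs and at 7.51 in CD8- DCs, 2.90-fold higher in CD8+ DCs. Its second probe set, 1427682_a_at, gave 8.15 in CD8+ DCs and 6.53 in CD8- DCs, or 3.07-fold. The 2 log2 differences, 1.54 and 1.62, lie closer together than the pooled SD of 0.30 between probe sets of a gene. In rank Egr2 was 185 from the top, and 4.72% of measured genes were at least as far apart. Egr1 (1417065_at), the family member first described as a growth factor response gene, had 11.08 in CD8+ DCs and 10.84 in CD8- DCs. Its difference was 0.25, and 51.1% of measured genes were at least as far apart.

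The measured genes closest to Egr3 in their pair of values were Treml4, at 10.43 in CD8+ DCs and 7.91 in CD8- DCs (distance 0.25 on the log2 scale), and the chemokine gene Cxcl9, at 10.52 and 7.96 (0.26). The closest to Egr2 were the phospholipase gene Plaat3, at 8.94 in CD8+ DCs and 7.39 in CD8- DCs (0.16), and the Myc family gene Mycl, at 9.17 and 7.37 (0.19). This likeness rests on 2 values per gene.

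Of the Nr4a genes, Nr4a2 and Nr4a3 were higher in CD8+ DCs and Nr4a1 was lower, all by less than 2-fold. Nr4a2 (Nurr1, probe set 1455034_at), required for midbrain dopamine neurons and inducible in many immune cells, had 9.64 in CD8+ DCs and 8.88 in CD8- DCs, or 1.69-fold. It was measured by 6 probe sets, more than any other of the 10 genes, and all 6 were higher in CD8+ DCs, by 0.24 to 0.95. The 4 brightest differed by 0.76, 0.89, 0.83 and 0.95, and the 2 dimmest, 1433422_at and 1433423_at, by 0.36 and 0.24. None of the 6 reached 2-fold.

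Nr4a3 (Nor1, probe set 1438796_at) had 8.19 in CD8+ DCs and 7.77 in CD8- DCs, and the difference was 0.42. Its second probe set was level, at 5.59 in CD8+ DCs and 5.56 in CD8- DCs, and the third was below the floor on both arrays, at 3.05 and 2.85. Nr4a1 (Nur77, probe set 1416505_at), which is induced by antigen receptor signals and is needed for patrolling monocytes, was read at 11.10 in CD8+ DCs and at 11.53 in CD8- DCs. That is a log2 difference of -0.42, the same size as for Nr4a3 with the opposite sign, and 29.8% of measured genes were at least as far apart. The difference between Nr4a2 and Nr4a1 in direction was not tested, and each has 1 value per population.

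**Figure D2:**
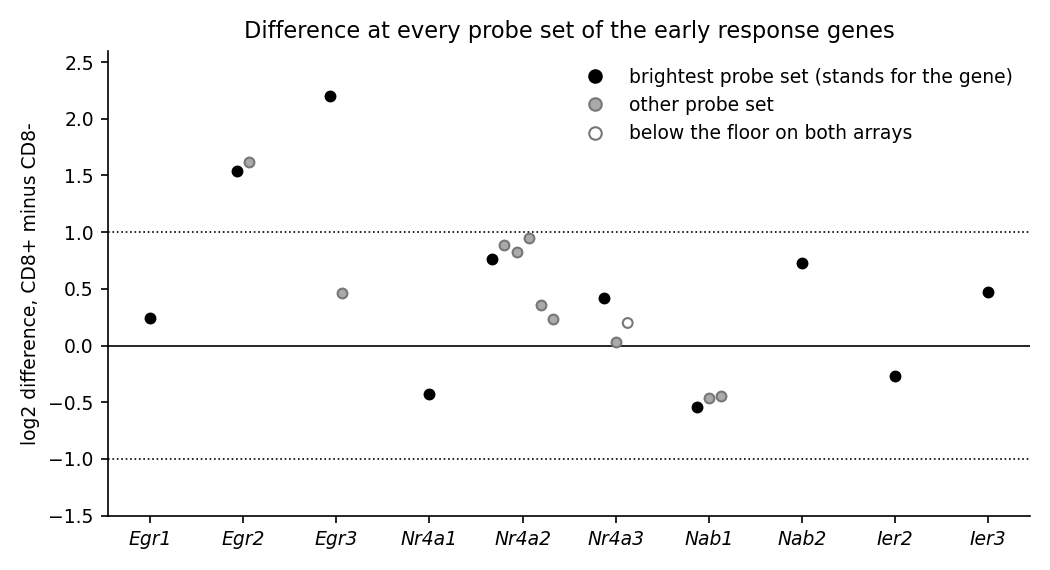
Log2 difference, CD8+ minus CD8- (vertical axis), at each of the 21 probe sets of the 10 genes, ordered within a gene by signal from the brightest (black) to the dimmest. Dotted lines mark 2-fold, and 1 probe set of Nr4a3 (open circle) is below the floor on both arrays. All probe sets of Egr2, Egr3 and Nr4a2 lie above 0 and the 3 of Nab1 lie below it, while the second Egr3 probe set is far under the first.

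The corepressor genes Nab1 and Nab2 differed in opposite directions. Nab1 (1417624_at) had 8.38 in CD8+ DCs and 8.92 in CD8- DCs, so that CD8+ DCs had 68.8% of the CD8- level. Its 3 probe sets were lower in CD8+ DCs by similar amounts, with log2 differences of -0.54, -0.46 and -0.44. The dimmest of these lay below the floor in CD8+ DCs, at 3.68 there and 4.12 in CD8- DCs. Nab2, itself induced by EGR proteins in other cells, had a single probe set, 1417930_at, at 5.91 in CD8+ DCs and 5.18 in CD8- DCs. CD8+ DCs were 1.66-fold higher for Nab2, and 14.8% of measured genes were at least as far apart. Both corepressor genes stayed under 2-fold.

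The Ier genes were split in the same way and by small amounts. Ier2 (1416442_at), a nuclear protein gene induced by growth factors, had 10.33 in CD8+ DCs and 10.60 in CD8- DCs, and the difference was -0.27. Ier3 (IEX-1, probe set 1419647_a_at), a stress gene that modulates cell death and NF-κB signals, had 7.10 in CD8+ DCs and 6.63 in CD8- DCs, and the difference was 0.47. Each has a single probe set, so no second reading was at hand.

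Probe sets of a gene agreed in direction for all 5 members that had several above the floor (Egr2, Egr3, Nr4a2, Nr4a3 and Nab1), against 67.1% of the 5183 such genes on the array. In 4 of these 5, all but Egr2, the brightest probe set differed by more than the dimmest, which held for 48.4% of all such genes. Probe sets of 1 gene share the sample and the array, so their agreement is no replicate.

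**Figure D3:**
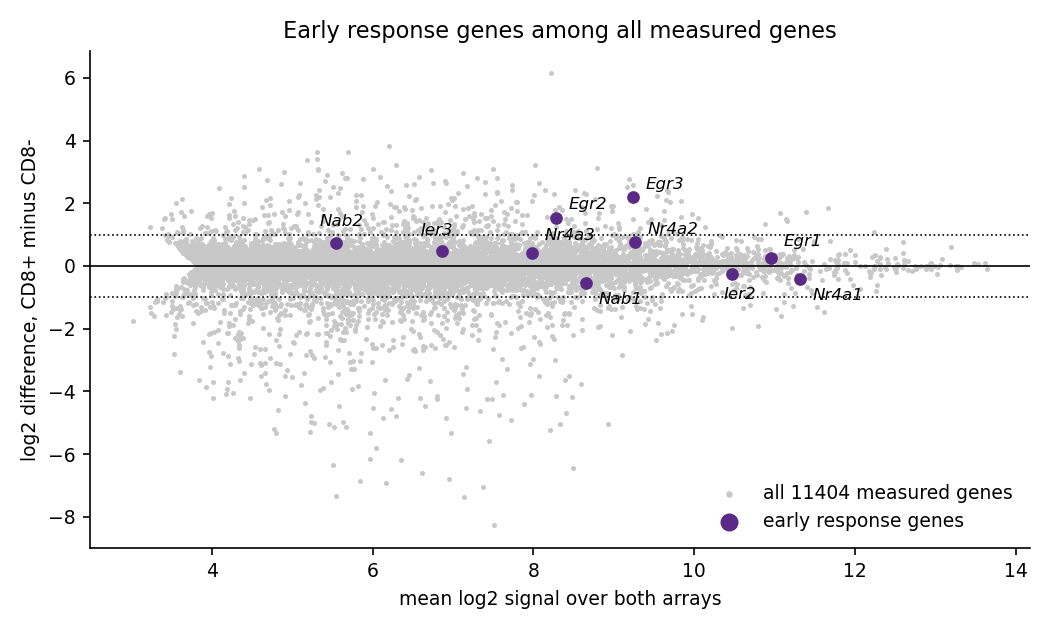
Log2 difference, CD8+ minus CD8- (vertical axis), against mean log2 signal over both arrays (horizontal axis) for the 11404 measured genes in grey and the 10 early response genes in purple, 1 probe set per gene. Dotted lines mark 2-fold. Egr3 and Egr2 lie above the upper line and the other 8 genes lie between the lines.

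Of 41 measured immediate-early genes outside the 4 families, 10 were higher and 31 lower in CD8+ DCs to any extent, with a median difference of -0.32 beside 0.03 over all 11404 measured genes, of which 5999 were higher and 5113 lower. At 2-fold, 1 was higher and 11 were lower in CD8+ DCs, beside 3.55% higher and 5.97% lower over all measured genes. Ptgs2, the inducible cyclooxygenase gene, had 3.56 (below the floor) in CD8+ DCs and 10.33 in CD8- DCs. CD8+ DCs were at least 89.8-fold lower for Ptgs2. The transcription factor gene Klf4 (5.40 in CD8+ DCs, 8.85 in CD8- DCs), the polo-like kinase gene Plk2 (4.70 and 7.31) and the NF-κB inhibitor gene Tnfaip3 (7.87 and 9.78) followed. Trib1, a pseudokinase gene, was the gene higher in CD8+ DCs, at 7.90 against 6.40 in CD8- DCs. Fos (12.87 in CD8+ DCs, 12.88 in CD8- DCs), Dusp1 (12.63 and 12.79) and Btg2 (12.25 and 12.24), which the naming rule did not pick and which were selected with their values known, were bright and level on both arrays. Saturation at such signals was not tested.

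Factors known to regulate Egr and Nr4a genes were mostly under 2-fold apart on the 2 arrays, as were most measured genes. Over all measured genes, 3.55% passed 2-fold towards CD8+ DCs and 5.97% towards CD8- DCs. Of 17 measured SRF, CREB, MEF2 and NFAT pathway genes, 0 passed 2-fold towards CD8+ DCs and 2 passed it towards CD8- DCs (median -0.18). These were Elk3, an SRF partner, at 4.45 in CD8+ DCs and 7.52 in CD8- DCs, and Mef2c, at 6.65 in CD8+ DCs and 8.78 in CD8- DCs. The 3 measured probe sets of Elk3 spread from -3.07 to -1.01, and the 5 of Mef2c from -2.70 to -2.11. Srf itself, selected with its values known, was level, at 6.49 in CD8+ DCs and 6.36 in CD8- DCs.

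Among 9 measured relatives and partners of the families, Rxra, a retinoid X receptor that pairs with NR4A1 and NR4A2, was past 2-fold, at 6.25 in CD8+ DCs and 5.07 in CD8- DCs. It was the 1 gene of this list to pass 2-fold in either direction (median 0.05), beside 9.52% of all measured genes. Its 2 measured probe sets differed by 1.18 and 1.19. Egr4, also selected with its values known, was close to the floor on both arrays, at 3.96 in CD8+ DCs and 3.86 in CD8- DCs. Of 14 measured genes reported as EGR targets in other cells, 1 passed 2-fold towards CD8+ DCs and 3 towards CD8- DCs (median -0.20). The shares over all measured genes were 3.55% and 5.97%. Cblb, a ubiquitin ligase gene induced by EGR2 and EGR3 in unresponsive T cells, had 8.40 in CD8+ DCs and 6.90 in CD8- DCs, though the log2 difference was as low as 0.21 at another of its 3 measured probe sets. The genes past 2-fold towards CD8- DCs were Cd69, Socs3 and Id3. The early activation marker gene Cd69 had 2.37 (below the floor) in CD8+ DCs and 6.58 in CD8- DCs. The cytokine signalling inhibitor gene Socs3 had 5.17 and 7.90, and Id3 had 2.90 and 3.94. The log2 differences of the 3 measured Socs3 probe sets spread from -2.72 to -0.995, so not all of them passed 2-fold. Id3 barely passed the floor in CD8- DCs, and against the floor it was at least 1.06-fold lower in CD8+ DCs. With values under the floor raised to it, 2 of these genes are past 2-fold towards CD8- DCs.

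**Figure D4:**
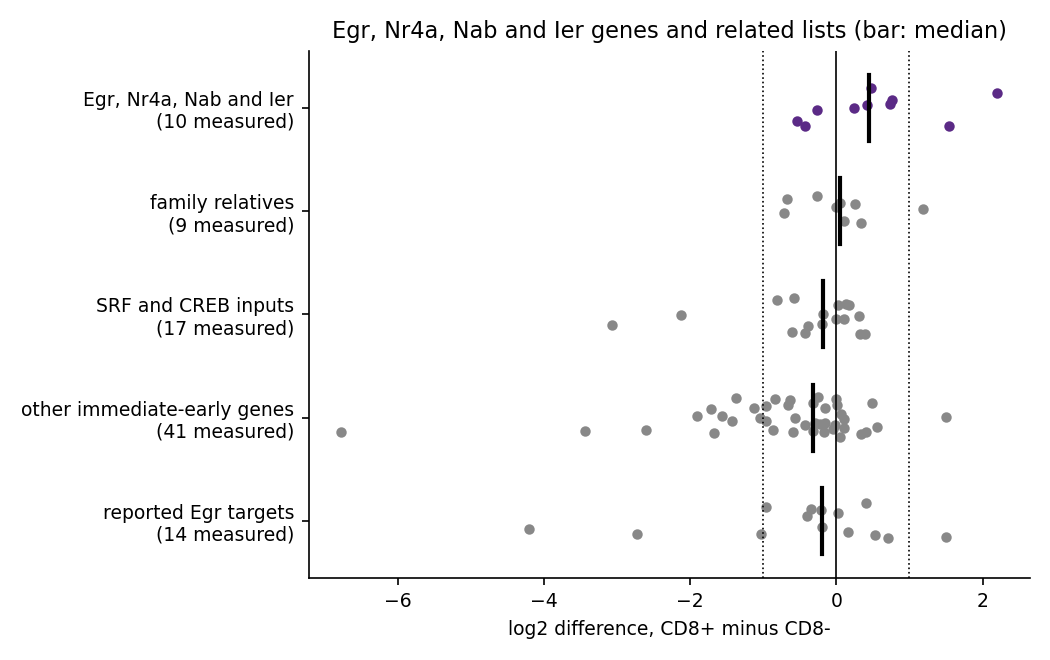
Log2 difference, CD8+ minus CD8- (horizontal axis), of each measured gene in the 10 Egr, Nr4a, Nab and Ier genes and in the 4 related lists, with a bar at each median. Dotted lines mark 2-fold. The 10 genes have a median of 0.45, while the other immediate-early genes have a median of -0.32 and 11 genes below the lower line.

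Cd8a, the gene of the marker that defines the sort, had 11.29 in CD8+ DCs and 5.15 in CD8- DCs, 70.6-fold apart, and the CD11c gene Itgax had 9.80 and 10.69. Of the 8 CD8+ DC markers on the array 7 passed 2-fold towards CD8+ DCs, and of the 8 CD8- DC markers 7 passed it towards CD8- DCs. Markers of T cells (2 of 6 above the floor), neutrophils (1 of 6), erythroid cells (2 of 4) and melanoma cells (2 of 6) were mostly near background, and the pigment cell genes Tyr, Dct, Mlana and Tyrp1 were below the floor on both arrays. B cell markers (2 of 6) and NK cell markers (2 of 5) were also mostly below the floor, but not all of them were dim. The B cell marker Cd79b was at 3.28 (below the floor) in CD8+ DCs and 6.59 in CD8- DCs, at least 6.72-fold lower in CD8+ DCs. Ms4a1, another B cell marker, went the other way, at 5.74 in CD8+ DCs and 4.99 in CD8- DCs. The NK cell marker Klrk1 was bright on both arrays, at 9.44 in CD8+ DCs and 10.17 in CD8- DCs. Prf1, also an NK cell marker, was close to the floor, at 4.04 and 4.11. All 5 plasmacytoid DC markers reached the floor, with 1 past 2-fold in each direction. Of the 5 monocyte markers on the array 4 reached the floor, and the log2 of the 5 summed signals was 8.37 in CD8+ DCs and 10.80 in CD8- DCs. Ccr2 (6.03 in CD8+ DCs, 9.32 in CD8- DCs) and Ms4a6c (5.92 and 10.03) were lower in CD8+ DCs, Cd14 (7.50 and 6.10) was higher, and F13a1 was below the floor on both arrays. Nr4a1 was lower in CD8+ DCs as well, and the part of monocytes in its difference was not tested. The macrophage markers (3 of 7 above the floor) summed to 7.76 on the log2 scale in CD8+ DCs and to 8.68 in CD8- DCs, and Spic, Cd5l and Mertk were below the floor on both. The 3 above it differed in direction. Adgre1 (4.63 in CD8+ DCs, 8.22 in CD8- DCs) was lower in CD8+ DCs, while Hmox1 (6.80 and 5.65) and Vcam1 (5.52 and 4.66) were higher.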

How the data were processed

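Biotinylated cRNA of each sorted population was measured on 1 Affymetrix mouse array. The deposited values are log2 signals per probe set made by the authors with RMA, the tool named in the submitters' processing notes. RMA quantile-normalises arrays, which hides a shift shared by most genes. Its version, the arrays normalised together and a genome build were not given in the sources used here. The median signal was 3.86 on the CD8+ array and 3.83 on the CD8- array.

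Probe sets took their genes from the platform annotation, with symbols updated by gene identifier from RefSeq (34754 of 34958 single-gene probe sets matched). The 932 probe sets with several genes and the 9211 not listed were not used. Each gene was represented by its brightest probe set and counted as measured where its higher value reached the median of all values, 3.85. Log2 differences are CD8+ minus CD8-, with a size rule of 2-fold. A fold whose lower value was under the floor is computed against the floor and given as "at least". With 1 array per population no test was made, and the number of arrays limits the precision. The pooled SD between probe sets of a gene (0.30, over 5183 genes) covers probes only.

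The 10 genes and the related lists were chosen with earlier results of these data known. Named genes were all 10, up to 4 per related list and direction with the largest differences past 2-fold, the 2 nearest genes of each member past 2-fold (predicted genes left out), and Cd8a and Itgax. Calculations used Python 3.11.15, numpy 2.4.6, pandas 2.3.3 and statsmodels 0.14.6 and were tested on simulated data. Alternatives were the mean of all probe sets, no probe sets ending in _x_at or _s_at, centring, a lowess trend (span 0.3), values under the floor raised to it, no filter, a floor at the 75th percentile, and thresholds of 1.5-fold and 4-fold.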

Additional observations from a re-analysis of the deposited data

How the results depend on the processing

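Direction held for all 10 genes under the 5 alternatives that recompute their differences (mean of all probe sets, no probe sets ending in _x_at or _s_at, centring, lowess trend, values under the floor raised to it). Of these 50 values, 49 moved by less than 0.30. The exception was Egr3, at 1.33 when its probe sets were averaged, still past 2-fold. Many of the 50 values could not move, so this count does not measure robustness. No probe set standing for a member ended in _x_at or _s_at or lay under the floor, so those alternatives changed no value. Averaging left genes with a single probe set as they were, and centring shifted every gene alike. The median over the 10 genes lay between 0.36 and 0.46 under these 5 alternatives and without a filter. It stayed in this range with the floor at the 75th percentile, where Nab2 dropped out. The count of 2 genes past 2-fold towards CD8+ DCs became 4 at 1.5-fold and 1 (Egr3) at 4-fold. Towards CD8- DCs it stayed at 0. Over all 11404 measured genes, 1086 were at least 2-fold apart in either direction, 2282 at least 1.5-fold and 337 at least 4-fold. Averaging probe sets left 0 relatives of the families past 2-fold towards CD8+ DCs. It also left 9 other immediate-early genes, in place of 11, past 2-fold towards CD8- DCs. At 1.5-fold, 2 of 9 measured relatives and 4 of 17 SRF and CREB pathway genes were lower in CD8+ DCs. So were 18 of 41 other immediate-early genes, while 2 of 14 EGR targets were higher. At 4-fold, 0 relatives, 0 immediate-early genes and 0 EGR targets were higher in CD8+ DCs, and 3 immediate-early genes were lower. The 3 EGR targets past 2-fold towards CD8- DCs were 2 with values under the floor raised to it, without probe sets ending in _x_at or _s_at, and with the floor at the 75th percentile. No paired analysis was possible because each population has 1 array. Detection calls were not used, and leaving out a replicate could not be done.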
